A study of Mus musculus with 30 samples.

Results

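The baseline comparison of the series sets untreated sham hearts of its 2 mouse cohorts side by side: 4 sham hearts of Cpt1a floxed mice (FF_sham) against 3 sham hearts of C57Bl/6 mice injected with PBS (PBS_sham). These 7 libraries were chosen by their labels out of 30. The study asked what Cpt1a, an enzyme of fatty acid import into mitochondria, does in hearts under pressure overload by transverse aortic constriction (TAC), a clip around the aorta. It lowered Cpt1a in part of a floxed cohort of 16 hearts. In part of an AAV9 cohort of 14 hearts it added Cpt1a with an AAV9 vector behind a cardiac troponin T promoter. All hearts were collected 8 weeks after surgery and sequenced as poly(A) RNA with a stranded kit.

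FF_sham hearts carried the floxed Cpt1a allele, had a sham operation, and have no Cre and no injection on their labels, which do not give their strain. PBS_sham hearts had no floxed allele on their labels, and had PBS and a sham operation. TAC hearts of the same kinds (FF_TAC, 4 floxed hearts, and PBS_TAC, 3 PBS hearts) enter below as libraries that the sham groups do not share. KO_sham and KO_TAC are hearts with a cardiac-specific Cpt1a knockout, whose Cre driver the labels do not name, and AAV_sham and AAV_TAC are C57Bl/6 hearts given AAV9.Cpt1a (4 each). Genotype and strain, injection and any batch differ together between FF_sham and PBS_sham, so their parts in any difference cannot be told apart. The labels do not say that the hearts of a group came from separate litters or days, and p-values measure the spread between these samples.

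As background, heat shock proteins are chaperones that hold and refold other proteins, and their genes are switched on by heat shock factor 1 when proteins unfold. Hspa1a and Hspa1b encode the inducible Hsp70, Dnaja1 and Dnajb1 encode its J-domain partners, and Hsp90aa1 encodes the inducible form of Hsp90. Immediate early genes such as Fos, Egr1, Atf3 and Nr4a1 encode transcription factors that many stimuli switch on within minutes. Rab4a encodes a small GTPase that returns endocytosed receptors and transporters to the cell surface.

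Of 15177 genes tested, 10 were called between the groups by edgeR's quasi-likelihood test (Benjamini-Hochberg adjusted p under 0.05). Rab4a was the 1 gene called higher in FF_sham, which is 0.00659% of the genes tested. The 9 genes called lower (0.0593%) were Hspa1a, Hspa1b, Dnaja1, Hsp90aa1 and Chordc1, which are chaperones or their partners, the stress-response transcription factor genes Atf3 and Jdp2, the matrix protein gene Thbs1 and the EGF receptor inhibitor gene Errfi1. At an unadjusted p under 0.05 there were 1712 genes, 338 higher and 1374 lower in FF_sham. The number of calls rested on every floxed heart: edgeR called 0 genes without FF_sham 1, 2, 3 or 4 (965 to 1386 at an unadjusted p under 0.05), and 81 without PBS_sham 1, 5 without PBS_sham 2 and 52 without PBS_sham 3. DESeq2 called 263 genes and limma with voom and sample weights 333, each with all 10 among them. Every voom fit here used sample weights, so the hearts did not count equally in it. The libraries of the groups did not overlap for 794 genes higher in FF_sham (5.23%) and 1120 lower (7.38%). Fold changes below are log2 of FF_sham over PBS_sham, and levels are CPM (counts scaled to library size) after TMM scaling over the 7 libraries unless another scale is named.

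Total counts ran from 16849335 to 17363788 in FF_sham and from 16842852 to 19480540 in PBS_sham. Levels of heart muscle transcripts fit the label: the summed level of 10 cardiomyocyte genes, Myh6, Tnnt2 and Ttn among them, was 68704 to 83958 CPM in FF_sham. Haemoglobin transcripts summed to 384 to 572 CPM in FF_sham and 452 to 558 CPM in PBS_sham. Here and below, CPM of haemoglobin transcripts are per total counts, without TMM scaling. Transcripts encoded by mitochondria took 22.03 to 25.99% of counts in FF_sham and 19.3 to 22.7% in PBS_sham. All 30 libraries had more counts of the Y-linked Ddx3y than of Xist.

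PBS_sham 3 stood apart. Pairs of libraries that held it had Pearson correlations of log2 CPM across genes of 0.876 to 0.912, against 0.944 to 0.985 for the other 15 pairs, and it lay alone on a first principal component with 56.8% of the variance. The cardiomyocyte list summed to 82443, 63645 and 31996 CPM in PBS_sham 1, 2 and 3, and the 23 fatty acid oxidation genes to 13112, 10080 and 2695 CPM. Endothelial markers went the other way, at 1682, 1657 and 3772 CPM, against 1710 to 1869 CPM in FF_sham. Fewer cells of a type and less RNA per cell cannot be told apart in such bulk samples. Without PBS_sham 3, 52 of 15319 genes were called, 5 higher (0.0326%) and 47 lower (0.307%) in FF_sham, and all 10 genes called with it were among them. Called genes and list medians are therefore given with and without this library. Its part in the other values was not tested.

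**Figure D1:**
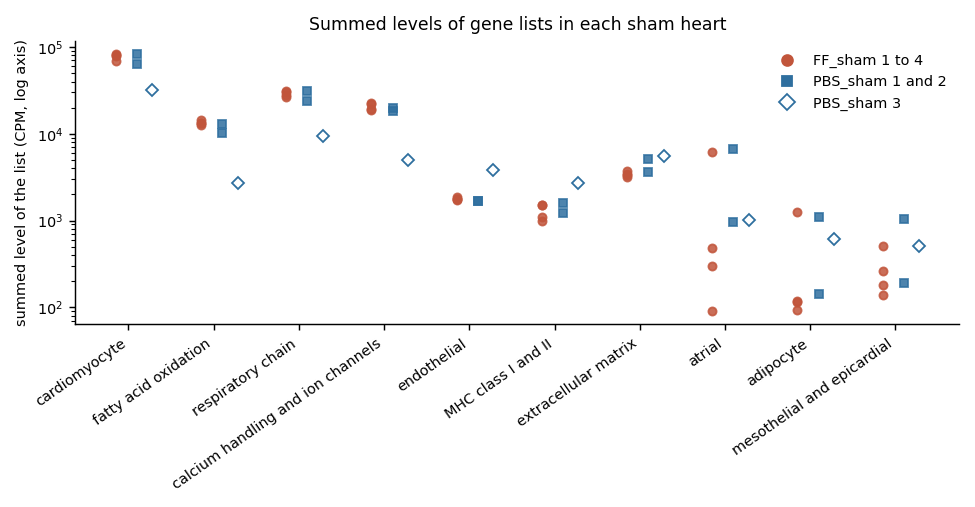
Summed level of 10 gene lists in each sham heart (CPM, log axis), with FF_sham 1 to 4 as circles, PBS_sham 1 and 2 as filled squares and PBS_sham 3 as an open diamond. PBS_sham 3 has the lowest cardiomyocyte sum (31996) and the highest endothelial sum (3772), while atrial and adipocyte sums are highest in FF_sham 2 and PBS_sham 2.

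The levels of atrial, fat and heart surface markers also varied from heart to heart, within both groups. Summed atrial markers, with Myl7 and Sln among them, were at 303, 6102, 480 and 90.4 CPM in FF_sham and at 951, 6592 and 1022 CPM in PBS_sham. Adipocyte markers were at 93.4, 1258, 118 and 114 CPM in FF_sham and at 144, 1086 and 611 CPM in PBS_sham. FF_sham 2 and PBS_sham 2 were thus high in both lists, and PBS_sham 3 in the second. Mesothelial and epicardial markers were at 138 to 512 CPM in FF_sham and at 190 to 1030 CPM in PBS_sham, and all 10 had a negative fold change with a median of -2.08 (-1.98 without PBS_sham 3), though none was called. The part of these tissues in the results below was not tested beyond the fit with atrial Myl7 as a covariate, in which edgeR called no gene (684 at an unadjusted p under 0.05). In that fit the list medians were -0.49 for heat shock and -1.49 for immediate early genes, against -0.44 and -1.52 without the covariate. Whether these tissues account for the differences cannot be told from such a fit of 7 libraries.

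The heat shock list held 5 of the 10 called genes, with the largest fold changes among them. Of its 20 genes, all tested, 5 were lower and none higher, against 0.0593% of all genes lower, and 7 had libraries that did not overlap, all lower in FF_sham, against 7.38% of all genes. The median fold change of the list was -0.44, against -0.03 over all genes tested. Without PBS_sham 3 the called genes numbered 11, all lower, against 0.307% of all genes, and the medians were -0.73 for the list and 0.00 for all genes.

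Because the Hsp70 pair carried the largest fold changes and has nearly the same letters upstream, the 250 bases before the RefSeq start (GRCm38.p6) are shown for both genes, with those of Dnaja1, all 5′ to 3′ on the gene's strand. Capitals mark GAANNTTC, the core of a heat shock element, found by search of both strands (the motif is its own reverse complement). The Hspa1a stretch lies at chr17:34972157-34972406 on the minus strand, that of Hspa1b at chr17:34959239-34959488 on the minus strand, and that of Dnaja1 at chr4:40722218-40722467 on the plus strand. The RefSeq start used for Dnaja1, from 3 entries, lies 318 bases downstream of the GENCODE gene start. The stretch shown for Dnaja1 thus lies within the GENCODE gene, not upstream of it.
Hspa1a: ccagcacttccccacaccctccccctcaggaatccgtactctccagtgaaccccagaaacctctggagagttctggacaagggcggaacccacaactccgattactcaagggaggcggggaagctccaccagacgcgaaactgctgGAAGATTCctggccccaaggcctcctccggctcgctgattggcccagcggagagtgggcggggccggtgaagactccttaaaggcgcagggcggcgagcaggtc
Hspa1b: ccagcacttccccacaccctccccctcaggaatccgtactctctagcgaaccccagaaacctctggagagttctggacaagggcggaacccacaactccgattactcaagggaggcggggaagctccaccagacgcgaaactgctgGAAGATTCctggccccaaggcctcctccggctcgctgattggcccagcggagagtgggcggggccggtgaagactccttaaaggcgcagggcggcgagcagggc
Dnaja1: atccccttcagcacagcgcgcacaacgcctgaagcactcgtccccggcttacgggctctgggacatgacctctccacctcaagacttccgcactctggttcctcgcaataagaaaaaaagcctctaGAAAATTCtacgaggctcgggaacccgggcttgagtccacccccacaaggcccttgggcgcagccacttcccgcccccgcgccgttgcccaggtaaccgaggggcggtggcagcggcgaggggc

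The match sits 104 to 97 bases before the start in both Hsp70 genes and 124 to 117 bases before it in Dnaja1. The 250 bases of Chordc1 hold neither GAANNTTC nor the other arrangement of the element, TTCNNGAA, and Hsp90aa1 is named only. Of 32851 RefSeq promoters of this length, 6.69% hold GAANNTTC, 7.17% TTCNNGAA and 12.8% at least 1 of them. The 22 promoters of the heat shock list hold at least 1 of them in 40.9% of cases. A match describes letters, not a bound site.

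Hspa1b (chr17:34956436-34959238) was at 1.37, 3.37, 1.76 and 2.79 CPM in FF_sham and at 118, 350 and 78.8 CPM in PBS_sham. Every PBS_sham heart was far above every FF_sham heart. The fold change was -6.29 (SE 0.61, edgeR adjusted p = 0.0185), a level 78.1-fold higher in PBS_sham, and -6.65 without PBS_sham 3. Hspa1a (chr17:34969190-34972156) was at 1.89, 2.55, 1.09 and 2.86 CPM in FF_sham and at 78.7, 224 and 68.6 CPM in PBS_sham. Its fold change was -5.88 (SE 0.53, edgeR adjusted p = 0.0185), or 58.8-fold, and -6.17 without PBS_sham 3. The pair are near-identical copies, so how their reads were divided is uncertain, and Hspa1a shares exonic sequence on the opposite strand with Gm20481.

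The J-domain partner Dnaja1 (chr4:40722150-40737149) was at 71.3, 72.6, 58.3 and 72.9 CPM in FF_sham and at 269, 379 and 237 CPM in PBS_sham. The groups did not overlap, and the fold change was -2.10 (SE 0.21, edgeR adjusted p = 0.0185) and -2.24 without PBS_sham 3. Its exons overlap those of Smu1 and Gm6297 on the other strand. Hsp90aa1 (chr12:110690605-110702728) was at 117, 110, 134 and 124 CPM in FF_sham and at 387, 593 and 408 CPM in PBS_sham. It fell by 1.93 on the log2 scale (SE 0.21, edgeR adjusted p = 0.0294), and by 2.02 without PBS_sham 3. Chordc1 (chr9:18292125-18317442), which encodes an Hsp90 partner protein, was at 37.2, 37.1, 32.4 and 38.7 CPM in FF_sham and at 74.6, 97.1 and 81.5 CPM in PBS_sham. Its fold change was the smallest of the 5, at -1.22 (SE 0.15, edgeR adjusted p = 0.0436), and -1.24 without PBS_sham 3.

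Other heat shock genes missed the threshold with all 7 libraries. Dnajb1, a J-domain partner of Hsp70, was at 16.9 to 23.9 CPM in FF_sham and 59.3 to 124 CPM in PBS_sham, with no overlap (log2 -2.03, edgeR adjusted p = 0.0584). Hsph1, which exchanges the nucleotide of Hsp70, was at 35.4 to 63.1 and 185 to 341 CPM (log2 -2.16, edgeR adjusted p = 0.0663). Both were called without PBS_sham 3, as were Stip1, Cacybp, Hspa8 and Ahsa1. For the last 4, PBS_sham 3 lay below every FF_sham heart while PBS_sham 1 and 2 lay above them: the constitutive Hsp70 gene Hspa8 was at 1113 to 1257 CPM in FF_sham and at 1920, 1959 and 925 CPM in PBS_sham. The small heat shock protein genes Hspb7 and Cryab, abundant in muscle, had positive fold changes of 0.66 and 0.49 that were not called, and 0.20 and 0.07 without PBS_sham 3. Among 18 chaperones of the endoplasmic reticulum none was called (median -0.36). Without PBS_sham 3 Sdf2l1 and Manf were called lower, against 0.307% of all genes (median -0.58).

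**Figure D2:**
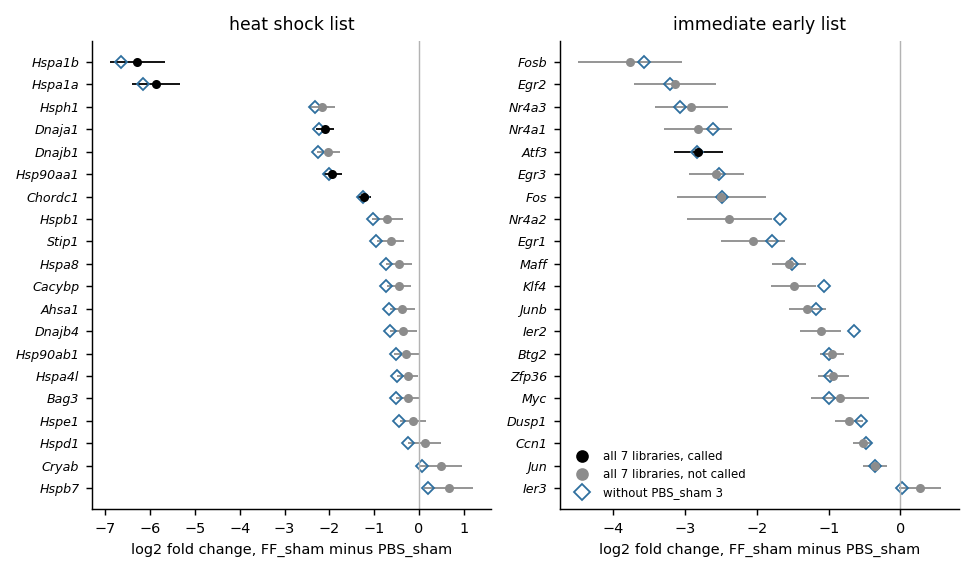
Log2 fold change of FF_sham over PBS_sham for the 20 tested genes of the heat shock list (left) and of the immediate early list (right). Circles with bars are the values and SE with all 7 libraries, black where called and grey where not, and open diamonds are the values without PBS_sham 3, with Hspa1b at -6.29 and -6.65.

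Immediate early genes lay lower in FF_sham in nearly every member. Of 20 tested, 19 had a negative fold change and 17 had libraries that did not overlap, all lower, against 7.38% of all genes, with a list median of -1.52. Only Atf3 was called by edgeR, against 0.0593% of all genes called lower. Atf3 (chr1:191170296-191218039) was at 2.60, 4.005, 4.49 and 5.98 CPM in FF_sham and at 18.97, 42.2 and 29.1 CPM in PBS_sham. Its fold change was -2.82 (SE 0.34, edgeR adjusted p = 0.0436), and -2.84 without PBS_sham 3. DESeq2 called 16 genes of the list and limma with voom 14, and no gene of it was called with all 30 libraries in the edgeR fit.

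Members that were not called are given with their values. Nr4a1, an orphan nuclear receptor gene, was at 9.89, 25.4, 24.5 and 11.8 CPM in FF_sham and at 56.1, 162 and 163 CPM in PBS_sham (log2 -2.83, edgeR adjusted p = 0.119). Egr1 was at 13.02, 38.7, 13.5 and 12.3 CPM in FF_sham and at 54.3, 79.9 and 107 CPM in PBS_sham (log2 -2.05, edgeR adjusted p = 0.199). FF_sham 2 was the highest of its group for Egr1, and PBS_sham 1 the lowest of its own for both genes. Fos was at 1.11 to 5.11 CPM in FF_sham and 5.34 to 22.8 CPM in PBS_sham (log2 -2.50, edgeR adjusted p = 0.273), so the groups nearly touched. Jun differed least among those that did not overlap, at 80.0 to 114 and 115 to 117 CPM (log2 -0.36, edgeR adjusted p = 0.455). The list median was -1.34 without PBS_sham 3.

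Jdp2 (chr12:85599027-85639878) encodes a partner and repressor of AP-1 proteins such as ATF3. Its level was 8.07, 7.60, 8.25 and 9.88 CPM in FF_sham and 21.1, 26.7 and 20.4 CPM in PBS_sham, with fold changes of -1.43 (SE 0.16, edgeR adjusted p = 0.039) and -1.50 without PBS_sham 3. Gm47863 overlaps it on the other strand. Errfi1 (chr4:150853919-150868892) was at 19.6, 19.6, 21.04 and 23.3 CPM in FF_sham and at 59.7, 112 and 74.7 CPM in PBS_sham. Its fold change was -1.97 (SE 0.22, edgeR adjusted p = 0.0317), and -2.04 without PBS_sham 3. It was the 1 called member of 12 glucocorticoid-responsive genes, against 0.0593% of all genes called lower (median -0.76, and -0.70 without PBS_sham 3). Cdkn1a, a cell cycle inhibitor gene of that list, was at 16.3 to 24.5 and 47.5 to 64.7 CPM (edgeR adjusted p = 0.0663), and was called lower without PBS_sham 3. Fkbp5, the best known glucocorticoid target of the list, was at 13.8 to 20.0 CPM in FF_sham and 18.8 to 41.3 CPM in PBS_sham and was not called.

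**Figure D3:**
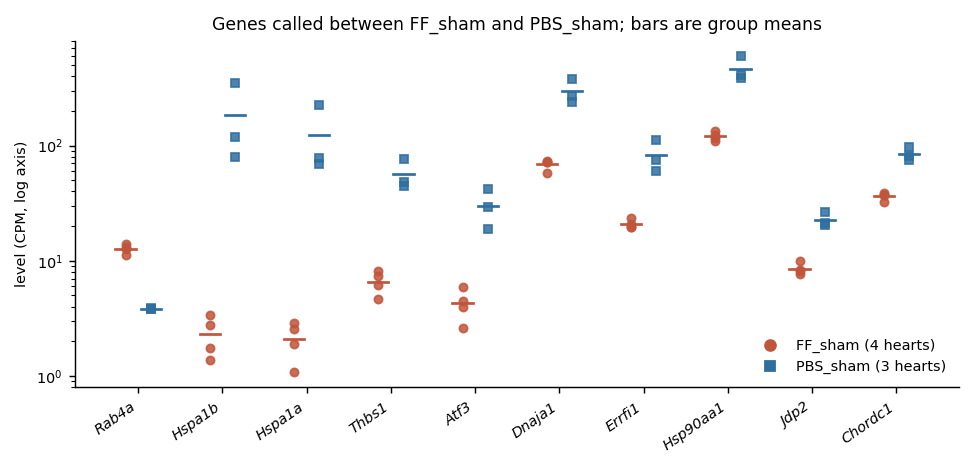
Level of the 10 called genes in each sham heart (CPM, log axis), with FF_sham as circles, PBS_sham as squares and group means as bars. Rab4a is the 1 gene with the FF_sham hearts on top, and Hspa1b and Hspa1a show the widest gaps, with means of 2.32 against 182 CPM and 2.098 against 124 CPM.

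Among 30 extracellular matrix genes Thbs1 was the 1 called, against 0.0593% of all genes called lower, and 12 had libraries that did not overlap, all lower in FF_sham, against 7.38% of all genes. Thbs1 (chr2:118111876-118127133) encodes thrombospondin 1, a secreted matrix protein that activates TGF-beta and that is also induced rapidly by stress. It was at 4.62, 6.15, 8.13 and 7.41 CPM in FF_sham and at 44.7, 76.6 and 48.7 CPM in PBS_sham, with no overlap. The fold change was -3.10 (SE 0.26, edgeR adjusted p = 0.0185), or 8.60-fold, and -3.20 without PBS_sham 3. Gm29233 overlaps it on the other strand. The structural matrix genes differed less: Col1a1 was at 115 to 145 CPM in FF_sham and 131 to 209 CPM in PBS_sham (log2 -0.45, edgeR adjusted p = 0.443). Postn, a matrix protein of activated fibroblasts, was at 27.1 to 44.6 CPM in FF_sham and at 53.1, 72.1 and 143 CPM in PBS_sham (log2 -1.30, edgeR adjusted p = 0.281), and at -0.79 without PBS_sham 3. The median of the list was -0.67, and -0.48 without PBS_sham 3.

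Rab4a (chr8:123805985-123835287), the 1 gene called higher, was at 13.9, 13.1, 11.2 and 12.6 CPM in FF_sham and at 3.78, 3.85 and 3.81 CPM in PBS_sham. Every FF_sham heart lay far above the 3 PBS hearts, which were nearly equal. The level was 3.32-fold higher (log2 1.73, SE 0.16, edgeR adjusted p = 0.0185). The value without PBS_sham 3 was also 1.73. No exon of another annotated gene overlaps it.

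Cpt1a itself, the floxed gene, was not called. It was at 40.3, 46.7, 56.2 and 48.4 CPM in FF_sham and at 38.0, 52.0 and 72.2 CPM in PBS_sham, with overlapping groups (log2 -0.17, SE 0.23, edgeR adjusted p = 0.672, and 0.09 without PBS_sham 3). A floxed allele keeps its exons until Cre removes them, so this level compares intact alleles. Cpt1b, the muscle isoform, was at 10.7 to 13.2 CPM in FF_sham and 6.34 to 8.22 CPM in PBS_sham with no overlap (log2 0.67, SE 0.16, edgeR adjusted p = 0.272). It moved little with PBS_sham 3 left out, at 0.69. The carrier gene Slc25a20 was at 214 to 242 CPM in FF_sham and at 204, 150 and 41.0 CPM in PBS_sham, and its fold change of 0.80 was 0.38 without PBS_sham 3. Of the 8 carnitine genes none was called and 3 did not overlap (higher in FF_sham: Cpt1b, Crot and Slc25a20), against 5.23% of all genes, with a median of 0.45 and of 0.26 without PBS_sham 3.

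Genes of energy metabolism mostly had positive fold changes, none of them was called, and the list medians were smaller without PBS_sham 3. Of 23 fatty acid oxidation genes, 22 had a positive fold change, none was called, 5 did not overlap (all higher, against 5.23% of all genes), and the median was 0.64, or 0.19 without PBS_sham 3. Hadha, of the mitochondrial trifunctional protein, was at 1660 to 1971 CPM in FF_sham and at 1669, 1323 and 278 CPM in PBS_sham. The medians of 28 nuclear respiratory chain genes and 20 glycolysis genes went from 0.41 each to 0.08 and 0.09 without that library. Of the 13 mitochondrially encoded genes none was called (median 0.44, and 0.27 without PBS_sham 3). In that list mt-Nd4l is a short complex I subunit gene that overlaps mt-Nd4. It was at 69.9, 42.0, 53.2 and 80.8 CPM in FF_sham and at 17.8, 18.5 and 14.6 CPM in PBS_sham (log2 1.86, edgeR adjusted p = 0.0663). On the scale of all 30 libraries it was at 40.5 to 78.5 CPM in FF_sham and 29.9 to 82.6 CPM in AAV_sham. KO_sham was at 13.4 to 33.2 CPM there. The log2 fold change of FF_TAC over PBS_TAC was -0.49.

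Lists of other cells gave no called gene. The medians of 12 endothelial, 19 MHC and 26 interferon-stimulated genes were -0.44, -0.40 and -0.36, and 0.00, -0.06 and 0.24 without PBS_sham 3. For 10 fibroblast and 6 lymphocyte genes they were -0.39 and -1.98, and -0.36 and -2.36 without it. For 8 nerve and 2 neutrophil genes they were -0.36 and -0.79, and -0.38 and -0.68 without it. For 16 macrophage and 12 smooth muscle genes they were -0.01 and 0.04, and -0.20 and 0.06 without it. Summed lymphocyte markers were at 151 CPM in PBS_sham 2, 10.5 and 18.8 CPM in PBS_sham 1 and 3, and 11.9 to 21.4 CPM in FF_sham. In the core clock list of 15, none was called. Libraries did not overlap for 3 of them higher in FF_sham, against 5.23% of all genes, and for 2 lower, against 7.38%. These were Per2, Per1, Nr1d1, Bhlhe41 and Cry2. Per2 and Per1 are light- and stress-responsive repressors of the clock. Per2 was at 15.9, 14.3, 6.43 and 15.2 CPM in FF_sham and at 30.9, 37.9 and 79.3 CPM in PBS_sham (log2 -1.93, edgeR adjusted p = 0.195). On the scale of all 30 libraries Per2 was at 6.15 to 15.3 CPM in FF_sham and 13.9 to 23.7 CPM in AAV_sham. It was at 3.72 to 10.0 CPM in AAV_TAC and 41.4 to 41.5 CPM in PBS_TAC. Nr1d1, a clock repressor that runs in another phase, was at 149 to 190 CPM in FF_sham and 88.5 to 113 CPM in PBS_sham (log2 0.67, edgeR adjusted p = 0.281). The labels give no time of day for the collection of the hearts.

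Genes known to differ between C57BL/6 substrains were looked at because the labels give no strain for the floxed mice. Nnt, a mitochondrial transhydrogenase that the J substrain lacks in working form, was at 3.38, 2.44, 4.37 and 3.51 CPM in FF_sham and at 2.17, 1.36 and 0.85 CPM in PBS_sham. The groups did not overlap, but the fold change of 1.24 was not called (edgeR adjusted p = 0.339), and it was 0.95 without PBS_sham 3. On the scale of all 30 libraries Nnt did not separate the cohorts, at 1.52 to 5.39 CPM in the floxed cohort and 0.72 to 3.61 CPM in the AAV9 cohort. There FF_sham was at 2.35 to 4.18 CPM, AAV_sham at 2.23 to 3.61 CPM and KO_TAC at 1.52 to 2.30 CPM. Another annotated entry named Nnt shares exonic sequence with it on the same strand. Wdfy1 split within both groups, at 6.96, 26.8, 8.06 and 29.9 CPM in FF_sham and at 8.23, 9.86 and 36.5 CPM in PBS_sham. Low and high hearts were thus found on each side.

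Linked sequence around the floxed allele was examined as a further property of the groups. Within 10 Mb of Cpt1a on chromosome 19, 240 genes were tested and none was called. Over all genes tested, 0.00659% were called higher and 0.0593% lower, so most windows of such a size would hold no call. The absence of calls therefore cannot decide about linked sequence. Libraries did not overlap for 11.2% of them, near the 12.6% of genes elsewhere, and no gene was called within 5 Mb (164 genes) or 20 Mb (269 genes).

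The TAC hearts gave the same cohort contrast in libraries that share none with the sham groups. FF_TAC against PBS_TAC had 2 of 14929 genes called by edgeR, both higher in FF_TAC (0.0134%) and none lower (0%), with 1064 genes at an unadjusted p under 0.05. Leaving out any 1 of the 7 TAC hearts ended both calls, with 0 genes called in every case but 1 (1 gene, without FF_TAC 3), and DESeq2 called 71 genes with both among them. Rab4a was one of them, at 10.8, 11.3, 10.4 and 10.1 CPM in FF_TAC and 3.91, 4.11 and 3.87 CPM in PBS_TAC on the scale of the 7 TAC libraries (log2 1.43, SE 0.12, edgeR adjusted p = 0.0252). The other was Gt(ROSA)26Sor, the transcript of the Rosa26 locus into which transgenes are often placed, at 13.96, 15.3, 17.7 and 15.3 CPM in FF_TAC and 6.36, 6.03 and 5.83 CPM in PBS_TAC (log2 1.36, SE 0.12, edgeR adjusted p = 0.0252). It overlaps Thumpd3 on the other strand and, in the sham hearts, was at 17.6, 10.2, 5.28 and 15.99 CPM in FF_sham and at 6.79, 6.69 and 12.8 CPM in PBS_sham, with overlap and no call.

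The 9 genes called lower in FF_sham were not called between the TAC groups, and 3 of them kept a negative sign there. Hspa1b was at 3.18, 18.9, 184 and 2.09 CPM in FF_TAC and at 32.6, 9.05 and 35.2 CPM in PBS_TAC. Thbs1 was at 5.48, 147, 171 and 11.0 CPM in FF_TAC and at 26.4, 26.2 and 67.4 CPM in PBS_TAC. FF_TAC 2 and 3 were thus the high hearts among the floxed hearts, and they also had 3.41 and 1.74 CPM of haemoglobin transcripts, against 502 and 534 CPM in FF_TAC 1 and 4. Leaving out hearts that were high for these genes would fix their signs, so no such value is given for them, and Rab4a was at 1.39 with FF_TAC 1 and 4 alone. A test of the difference of the sham and TAC contrasts over the 14 libraries called 0 of 15815 genes in edgeR (1161 at an unadjusted p under 0.05), and 0 of 16204 without FF_TAC 2 and 3 (653).

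**Figure D4:**
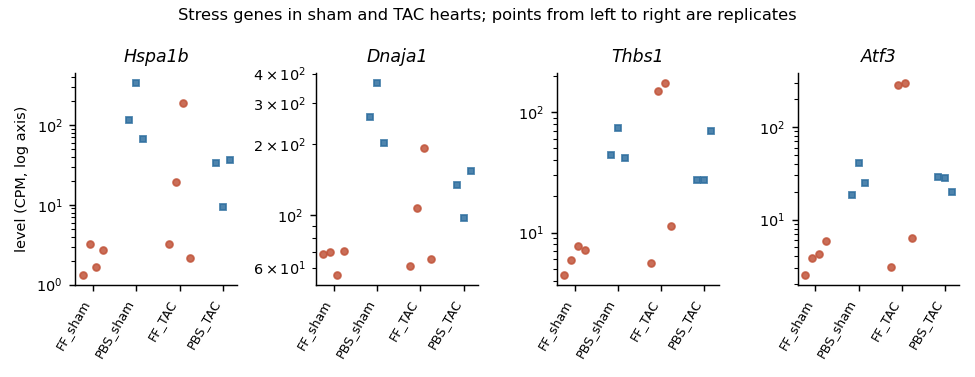
Level of Hspa1b, Dnaja1, Thbs1 and Atf3 in FF_sham, PBS_sham, FF_TAC and PBS_TAC hearts (CPM scaled over all 30 libraries, log axis), 1 point per heart with replicates from left to right. FF_TAC 2 and 3 are above FF_TAC 1 and 4 in each panel, and Hspa1b in PBS_sham (67.4 to 337 CPM) is above PBS_TAC (9.38 to 36.8 CPM).

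Levels in the rest of the series place the sham groups. On the scale of all 30 libraries Hspa1b was at 1.31 to 3.25 CPM in FF_sham, and at 1.71, 235, 2.05 and 2.54 CPM in KO_sham, where the high heart, KO_sham 2, had 1.40 CPM of haemoglobin transcripts. KO_TAC was the highest group, at 211 to 765 CPM, with 3.89 to 51.1 CPM of haemoglobin transcripts. Hspa1b was at 67.4 to 337 CPM in PBS_sham and 52.9 to 303 CPM in AAV_sham. Haemoglobin transcripts were at 452 to 558 CPM and 294 to 473 CPM in these groups. Hspa1b was at 9.38 to 36.8 CPM in PBS_TAC and 3.71 to 22.8 CPM in AAV_TAC, with haemoglobin at 344 to 791 CPM and 444 to 943 CPM. A link between Hspa1b and haemoglobin levels was not tested. Both sham groups of the AAV9 cohort were therefore above both of its TAC groups, while in the floxed cohort KO_TAC was above 3 of the 4 KO_sham hearts and all FF_sham hearts. In the AAV9 cohort Dnaja1 also was higher in sham hearts, at 199 to 365 CPM in the 7 sham hearts and 73.4 to 154 CPM in the 7 TAC hearts. In the floxed cohort it was at 55.7 to 70.8 CPM in FF_sham and 61.9 to 195 CPM in KO_sham. There it was at 60.8 to 193 CPM in FF_TAC and 233 to 465 CPM in KO_TAC.

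Among 13774 genes that averaged 1 CPM or more over the 30 libraries, 1 gene was higher in all 16 floxed-cohort hearts than in all 14 AAV9-cohort hearts, and 1 was lower (0.00726% each). The higher gene was Rab4a, at 7.45 to 13.4 CPM against 3.04 to 4.98 CPM. The lower gene was Gata2, an endothelial and blood transcription factor gene, at 7.17 to 20.2 CPM against 20.7 to 40.6 CPM, so that the cohorts nearly met. PBS_sham 3 had the 40.6 CPM, and the other AAV9-cohort hearts reached 24.9 CPM. In the sham comparison Gata2 was not called (log2 -0.70, edgeR adjusted p = 0.424), and its value without PBS_sham 3 was -0.25. Gt(ROSA)26Sor was at 5.87 to 7.11 CPM in the AAV9 cohort other than PBS_sham 3, which had 11.0 CPM, and at 5.05 to 27.4 CPM in the floxed cohort. Wdfy1 was at 7.66 to 10.5 CPM in the AAV9 cohort other than PBS_sham 3, which had 31.2 CPM. In the floxed cohort it was at 6.69 to 10.3 CPM in some hearts and at 21.4 to 50.9 CPM in the others. PBS_sham 3 thus lay apart from its own cohort for Gata2, Wdfy1 and Gt(ROSA)26Sor, while its Rab4a level of 3.26 CPM was within the range of that cohort.

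**Figure D5:**
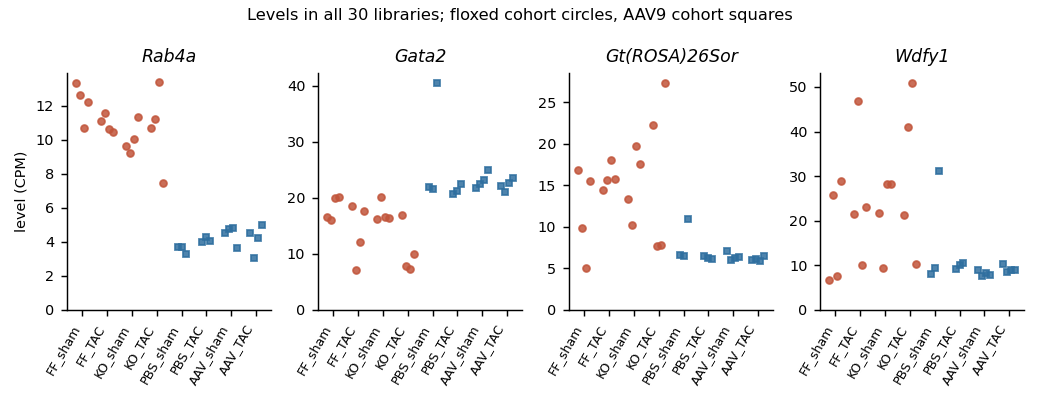
Level of Rab4a, Gata2, Gt(ROSA)26Sor and Wdfy1 in all 30 hearts by group (CPM scaled over all 30 libraries), 1 point per heart, with the floxed cohort as circles and the AAV9 cohort as squares. Rab4a separates the cohorts (7.45 to 13.4 against 3.04 to 4.98 CPM), and PBS_sham 3 is the AAV9-cohort heart at 31.2 CPM for Wdfy1.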

How the data were processed

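Whole-gene read counts were deposited by the authors as 1 table for 30 libraries. Per the submitters' processing notes, HISAT2 2.1.0, featureCounts and Subread 1.5.1 were used with build GRCm38; the strand setting and annotation release are not given in the sources used here. GENCODE M21 gave a symbol for 55227 of 55487 identifiers. Groups came from the labels. FF_sham was compared with PBS_sham in edgeR 4.0.16 (R 4.3.3): TMM scaling, filterByExpr, quasi-likelihood F test, Benjamini-Hochberg adjustment over all genes tested, called at an adjusted p under 0.05. FF_TAC was compared with PBS_TAC likewise. SE is the fold change divided by the square root of F. The test was checked on simulated data. Named genes were those called that averaged 5 CPM or more in their higher group and did not overlap (up to 12 a direction), the carnitine genes, and list members. Genes outside that rule (Gata2 and Gt(ROSA)26Sor) and those named in lists out of order of adjusted p or level (mt-Nd4l, Nr4a1, Postn, Per2, Wdfy1 and others) were chosen after their values were seen. The members and lists were chosen with earlier results of these data known. DESeq2 1.42.0, limma 3.58.1 with voom and sample weights, other scalings, filters, covariates and left-out libraries were alternatives. No 2 libraries of the same sham group agreed within sampling noise.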

Additional observations from a re-analysis of the deposited data

Results flagged for a closer look

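In FF_sham, 38 genes and 42 list sums were examined for 1 heart far from the other 3 (a gap above the 95% limit of Dixon's ratio), which chance gives in about 1 of 20 groups, and 2 genes and 9 lists met the limit. FF_sham 3 was low for Dnaja1, at 58.3 CPM against 71.3 to 72.9 CPM, and for Per2, at 6.43 CPM against 14.3 to 15.9 CPM. FF_sham 2 was high in the summed level of 5 lists and of a list of 3 hormone-responsive genes. These were atrial markers (6102 CPM against 90.4 to 480), adipocyte markers (1258 against 93.4 to 118), sterol and fatty acid synthesis genes (1078 against 482 to 514), antioxidant and xenobiotic genes (2210 against 1439 to 1559) and natriuretic and adrenergic genes (3640 against 1161 to 1489). The hormone-responsive genes (Esr1, Greb1 and Pgr) were at 3.95 CPM against 1.17 to 1.43. FF_sham 4 was high in fasting and PPAR targets (11878 against 10355 to 10437 CPM) and in substrain genes (328 against 266 to 270 CPM). FF_sham 1 was high in cytosolic ribosomal protein genes (9391 against 7925 to 8128 CPM). Lists share genes, Nppa, Fasn and Scd1 among them, so these counts are not independent.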

How the results depend on the processing

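With 4 hearts against 3, the number of genes called between FF_sham and PBS_sham (10) depended on the settings. No called gene changed direction in 20 settings, while 309 of 4369 values of genes that were not called had the other sign, 29 of them without PBS_sham 3. Of 200 values of the 10 called genes under these settings, 118 kept the call and 82 lost it, and 123 of 4369 values of genes that were not called passed the threshold. The count was 263 with DESeq2, 333 with limma and voom, 54 without a filter on low counts, 709 with all 30 libraries in the fit (7 of the 10 among them), 5 against a minimum fold change of 1.5, and 0 with either Myl7 or the immediate early mean as a covariate (684 and 433 genes at an unadjusted p under 0.05). With these covariates the heat shock median was -0.49 and -0.68, against -0.44 in the main fit. Over the 20 settings the fold change of Hspa1b ran from -6.91 to -3.74. What accounts for the heat shock difference was not tested. The number of genes called ran from 0 to 81 with 1 heart left out: 0 without any FF_sham heart, 81 without PBS_sham 1, 5 without PBS_sham 2 and 52 without PBS_sham 3. Heat shock genes called lower (5) numbered 12 with voom, 0 with either covariate, 3 against the minimum fold change, and 0 to 11 with 1 heart left out. Immediate early genes called lower (1) numbered 16 with DESeq2, 14 with voom, 8 without the filter, 0 with all 30 libraries, either covariate or the minimum fold change, and 0 to 7 with 1 heart left out; the covariate made from that list adjusts it for itself, which fixes that 0 by construction. Calls between FF_TAC and PBS_TAC (2) numbered 71 with DESeq2, 4 with voom and 0 to 1 with 1 heart left out. Added after seeing the data, the sham fit without PBS_sham 3 and mitochondrially encoded genes called 51 genes, 11 of them heat shock genes, and FF_TAC 1 and 4 against PBS_TAC gave 10. The cause of these shifts was not tested beyond fewer samples or genes. Low levels, such as the 1.37 CPM of Hspa1b in FF_sham 1, rest on few counts. Replicate numbers occur in both groups, and same-numbered hearts deviated together with correlations of 0.401, 0.305 and 0.0857. The values of 0.401 and 0.305 were above those of all differently numbered pairs, while PBS_sham 3 correlated best with FF_sham 2, at 0.135. Whether the numbers pair the hearts is thus not known, and the main fit did not pair them. With the replicate block, 2 genes were called between the sham groups, both of them heat shock genes lower in FF_sham, 0 immediate early genes, and 0 genes between the TAC groups. RLE and upper-quartile scaling and a higher filter kept the counts of the sham comparison within 1.5 times, and RLE scaling that of the TAC comparison. The signs of the macrophage and skeletal muscle medians changed with the scaling or the libraries in the fit. Without PBS_sham 3 those of 7 lists changed, among them skeletal muscle, clock output (-0.25 to 0.08), antioxidant and xenobiotic (0.15 to -0.08) and interferon-stimulated genes (-0.36 to 0.24).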
